A study of Homo sapiens with 4 samples.

Results

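HK2, an immortalized line of human renal proximal tubular cells, was profiled by RNA-seq under FG-4592, and its RNA is described here transcript by transcript. FG-4592, also called roxadustat, blocks the prolyl hydroxylases that mark HIF-alpha subunits for degradation. The 2 libraries, replicates 1 and 2, are both labelled with 50 μM of the compound, given for 6 h, and the labels do not say whether they came from separate cultures. No untreated library was used here, so the values are levels and no condition is compared. Levels are in TPM, a unit that corrects for transcript length and sums to 1000000 in each library.

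Genes were chosen by their measured level. The TPM of all transcripts of a gene was added up, and a gene was kept when the sum reached 1 in both libraries. Of 58288 annotated genes, 15374 (26.4%) were kept, and they held 99.5% of the TPM in each library. Each of 2461 kept genes had a single annotated transcript, and the other 12913 had at least 2. Of the 122098 annotated transcripts of the kept genes, 43520 reached 1 TPM in both libraries. A further 18280 were listed at 0 in both, and 16479 were listed at 0 in exactly 1 library. The median kept gene stood at 20.02 TPM in replicate 1 and 20.6 TPM in replicate 2. The depth, as coverage times transcript length, was 4442 Mb and 4202 Mb. The 5 genes just inside the threshold were the pseudogene AC093909.1 (1.14 and 1.00 TPM in replicates 1 and 2), SNORD91B (3.85 and 1.00), MFSD4A (1.68 and 1.00), the pseudogene AL121612.1 (1.00 and 1.04) and the non-coding AC026191.1 (1.00 and 1.12). The 5 just outside were HMGN2P4 (2.29 and 0.9997 TPM), SLC9A7P1 (0.9996 and 1.53), SLC2A2 (0.9995 and 2.16), ZNF182 (1.65 and 0.9994) and SAMD5 (0.9993 and 1.73).

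A human gene usually yields several transcripts, which differ in their first exon, in the exons joined by splicing or in their end. Some of them carry a premature stop codon and are targets of nonsense-mediated decay, and others keep an intron and often remain in the nucleus. Sequenced fragments are shorter than most transcripts, so a program has to divide the reads of shared exons among the annotated transcripts of a gene, and the level of 1 transcript is an estimate. The transcript with the highest mean TPM of a gene is called its leading transcript below, and its part of the gene's summed TPM is called its share. Transcript types are those of GENCODE 44, matched by identifier for 194137 transcripts, which held 96.7% of the TPM.

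Some markers of the proximal tubule were present and others were listed at 0. Of 16 proximal tubule markers 5 were kept, and the list summed to 550.4 and 518 TPM in replicates 1 and 2. Of all annotated genes 26.4% were kept, but those include pseudogenes and non-coding genes, so the parts are not like for like. PAX8, a transcription factor of the renal lineage, was the highest of them at 333 and 316 TPM, ahead of the brush border enzyme GGT1 at 172 and 162 TPM. LRP2, SLC22A6, SLC22A8 and HNF4A, which define the tubule in vivo, were listed at 0 in both libraries. Of 6 epithelial markers 5 were kept, with a sum of 1349.8 and 1295 TPM, led by KRT19 at 508 and 490.2 TPM, while CDH1 was not kept at 0.581 and 1.05 TPM. All 5 markers of mesenchyme or dedifferentiated culture were kept, with a sum of 10030.3 and 8479 TPM, led by FN1. The other kept members of the tubule list were MME (27.7 and 24.8 TPM), AMN (9.13 and 8.19 TPM) and the glucose transporter SLC5A2 (7.13 and 4.72 TPM). The leading transcripts of AMN and SLC5A2 keep an intron, with shares of 33.5% and 36.1% for AMN-203 and 51.3% and 45.9% for SLC5A2-207. In bulk RNA, fewer cells of a type and less RNA per cell cannot be told apart.

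Markers of other cells were at or near 0 with a few exceptions. None of 7 markers of other nephron segments was kept (sum 0.0537 and 0.0743 TPM, all of it SLC12A3, with NPHS1, WT1, UMOD, SLC12A1 and AQP2 listed at 0). None of 4 endothelial markers was kept (sum 0.0701 TPM in replicate 1 and 0 in replicate 2, CDH5 highest, PECAM1 and KDR listed at 0). Of 6 fibroblast markers 3 were kept (sum 110.03 and 111 TPM), nearly all of it the collagen chain COL1A1 at 107 and 107 TPM, and PDGFRA was listed at 0. Of 6 blood markers only HBA1 was kept, at 16.5 and 20.02 TPM of a list sum of 16.6 and 20.1, and PTPRC, CD3E and HBB were listed at 0.

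The highest genes of the transcript pool include genes for glycolysis, the ribosome and actin binding. GAPDH, the dehydrogenase in the middle of glycolysis, was the highest gene, with 21152 TPM in replicate 1 and 20617 TPM in replicate 2, which was 2.12% and 2.06% of the pool. FTL, the light chain of the iron store ferritin, followed with 10878 and 10311 TPM. TMSB10 (9626 and 9449 TPM) and TMSB4X (8881 and 8689 TPM) encode thymosins, small proteins that bind actin monomers. The 20 highest genes, selected on mean TPM, held 11.9% and 11.8% of the pool, and 8 of them encode ribosomal proteins. The 100 highest held 26.9% and 26.4% (mean 26.7%), and the 1000 highest 57.2% and 56.7%. In replicate 1, 617 genes made up 50% of the pool, and in replicate 2 it took 640. Genes of at least 1000 TPM in both libraries numbered 121, and genes of at least 100 TPM numbered 1651 with 65.3% and 65.0% of the pool.

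**Figure D1:**
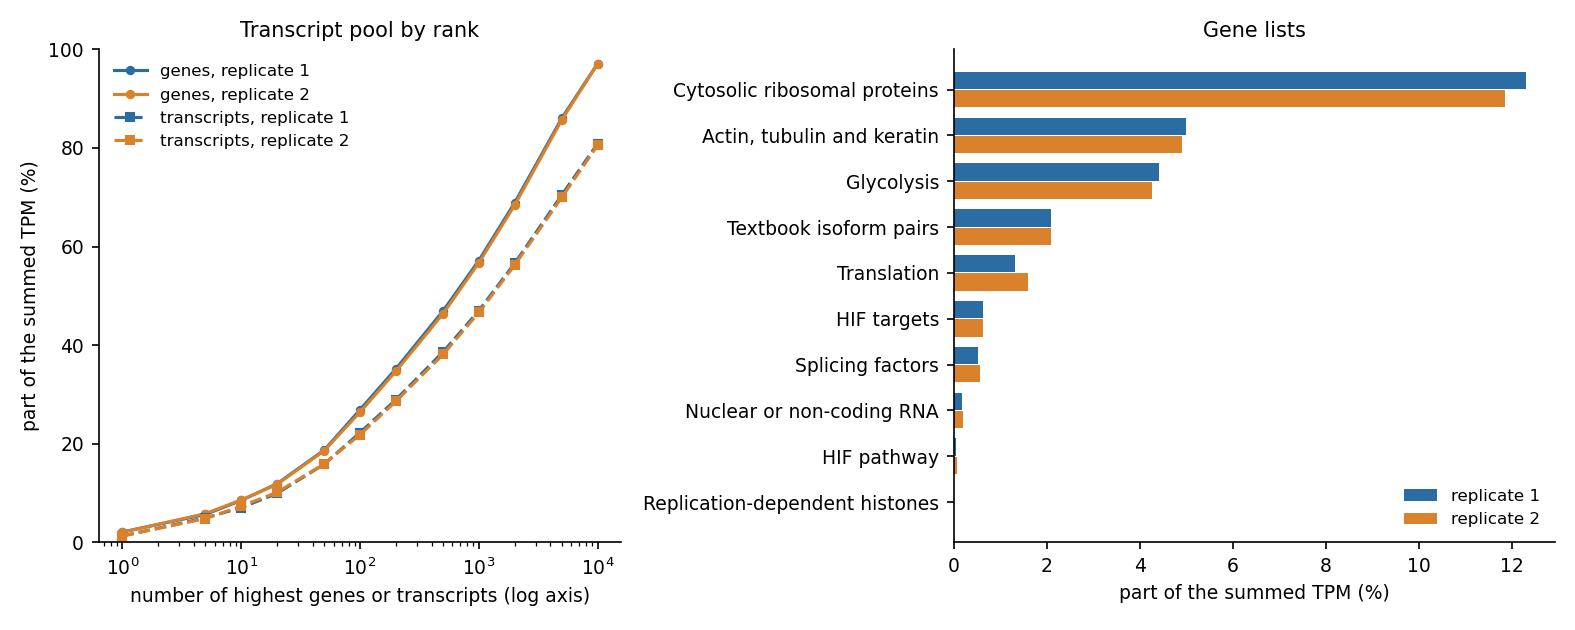
Left, part of the summed TPM (%) held by the highest genes (circles, solid lines) and the highest transcripts (squares, dashed lines) of each library, against their number on a log axis. Right, part of the summed TPM (%) held by each gene list, 1 bar per library. The 100 highest genes hold 26.9% and 26.4%, the 100 highest transcripts 22.3% and 21.9%, and the ribosomal protein list is the largest of the lists drawn.

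By function, the cytosolic ribosomal proteins took the largest part of the lists examined. Of 87 genes 85 were kept, with 12.3% of the pool in replicate 1 and 11.9% in replicate 2. The cytoskeletal list of 31 genes held 4.99% and 4.91%, with all but the muscle tropomyosin TPM2 (0.456 and 0.169 TPM) kept. It takes in actins, tubulins, keratins and VIM, and also proteins that bind actin. Among the latter are TMSB10 (9626 and 9449 TPM) and TMSB4X (8881 and 8689 TPM). The glycolytic list, with 18 of 19 genes kept, held 4.42% and 4.27%. The 11 translation factors held 1.33% and 1.59%, and EEF1A1, which brings aminoacyl-tRNA to the ribosome, was their highest member. By annotated class, 12562 protein-coding genes (81.7% of the kept genes) held 95.8% and 95.5% of the pool. The 1596 long non-coding RNA genes held 1.45% and 1.48%, and 435 processed pseudogenes held 0.885% and 0.892%. Many of the abundant genes have near-identical pseudogene copies, such as the 62 named copies of GAPDH, which summed to 29.02 and 29.2 TPM, and how many of their fragments came from the parent gene is not known from the tables.

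Single transcripts carried a large part of this pool. GAPDH-208 was the highest transcript, with 13211 TPM in replicate 1 and 13034 in replicate 2, or 1.32% and 1.303% of all TPM. FTL-201 and TMSB10-201 are the only annotated transcripts of their genes, and TMSB4X-204 followed with 8739.5 and 8538 TPM. MT2A-201, from a metallothionein gene that binds zinc and copper, stood at 5754 and 5621 TPM, which was 99.4% and 99.4% of its gene. The matricellular protein CCN1, listed in the tables as CYR61, was led by CCN1-201 at 2561 and 2594 TPM. S100A6-201, from a gene for a calcium-binding protein, stood at 2438 and 2469 TPM. Of the 20 highest transcripts, selected on mean TPM, 7 encode ribosomal proteins. In this group 18 are annotated as coding and 2 as retained introns, GAPDH-208 and ENO1-203. In all, 1220 transcripts in replicate 1 and 1251 in replicate 2 made up 50% of the pool.

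**Figure D2:**
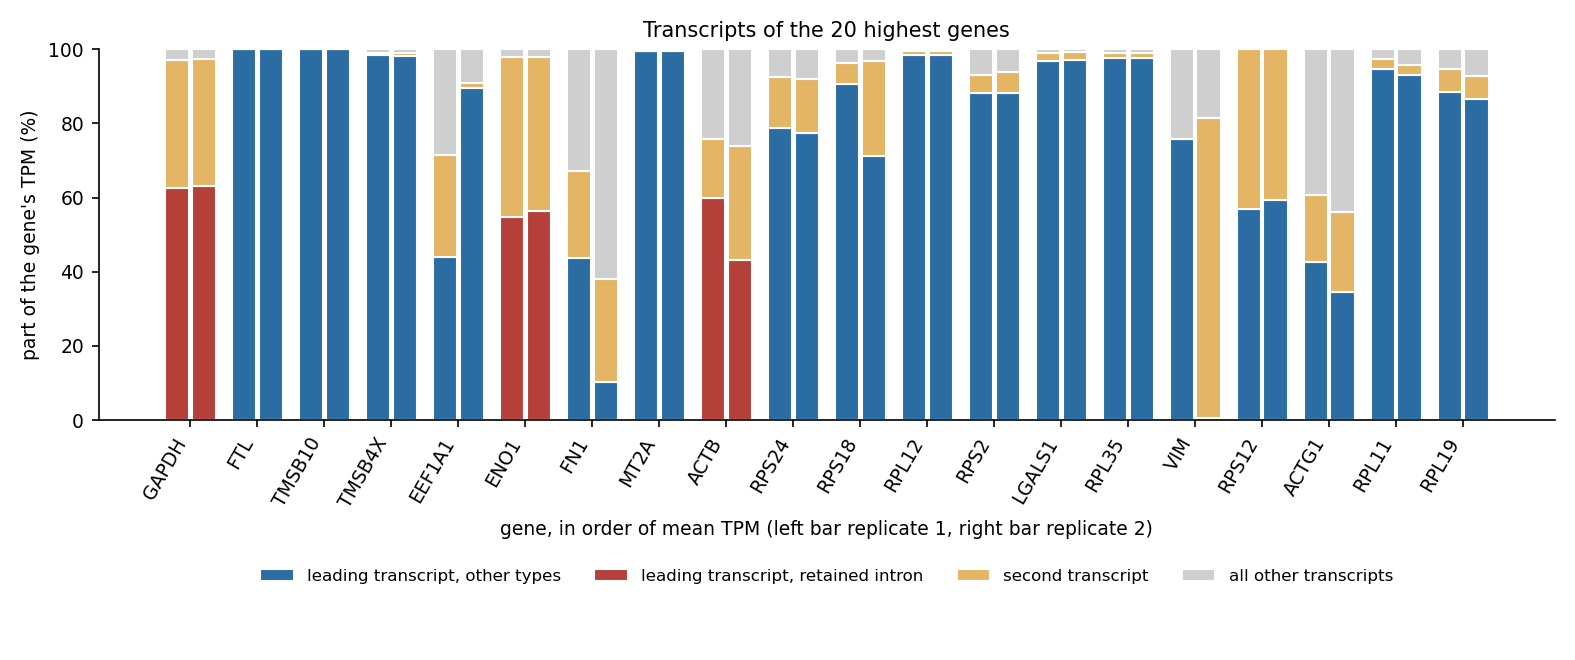
Part of the gene's TPM (%) by transcript for the 20 highest genes in each library. Each bar is stacked into the leading transcript (red where it is annotated as a retained intron, blue otherwise), the second transcript (gold) and the rest (grey). The red leads are those of GAPDH, ENO1 and ACTB, and the leads of FTL, TMSB10, TMSB4X and MT2A fill nearly the whole bar.

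Across the 12913 kept genes with at least 2 annotated transcripts, the leading transcript held a median of 59.7% of the gene's TPM (mean of both libraries). The middle of the distribution was wide, with the 25th percentile at 41.6% and the 75th at 81.9%, and the 10th and 90th at 30.1% and 94.6%. In 2056 genes (15.9%) the share was at least 90%, so that 1 transcript stood for nearly the whole gene. In 4782 genes (37.0%) it was under 50%. Both parts depend on the unit: by bases of coverage they were 27.2% and 24.5%. Because the lead is picked by its mean over both libraries, its share is lower than the share of each library's own lead, whose median was 62.6% in replicate 1 and 62.5% in replicate 2. The median gene had 2 transcripts at 10% or more of its TPM in each library.

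The share followed the number of annotated transcripts. Genes with 2 annotated transcripts had a median share of 93.1% (1111 genes), and those with 3 had 84.3% (1150 genes). The median was 74.97% for 4 to 5 transcripts, 58.2% for 6 to 10, 43.0% for 11 to 20 and 32.5% for 21 or more (827 genes). With 2 transcripts 57.4% of genes had a share of at least 90%, and with 21 or more 0.121% had one. The level of the gene made less difference, with median shares from 56.8% at 10 to 30 TPM to 71.4% at 300 TPM or more (435 genes). The number of transcripts and the level were each taken alone and not crossed, and whether the transcripts listed at low levels exist in these cells was not tested.

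**Figure D3:**
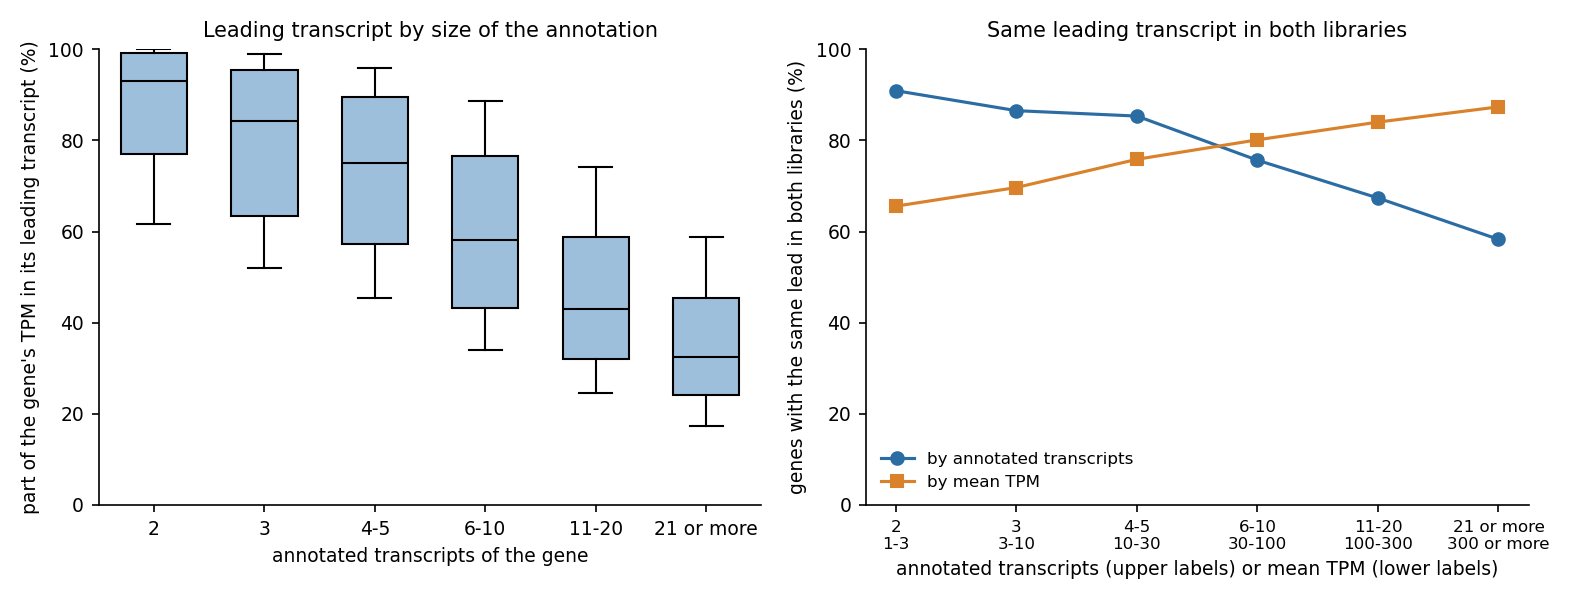
Left, share of the leading transcript (%) by the number of annotated transcripts of the gene, with boxes from the 25th to the 75th percentile and whiskers from the 10th to the 90th. Right, percent of genes with the same leading transcript in both libraries, by the number of annotated transcripts and by mean TPM. The median share falls from 93.1% to 32.5%, and the percent of genes with the same lead from 90.9% to 58.3% over the transcript classes.

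Some genes with long lists still gave nearly a single transcript. Of 4786 genes with at least 10 annotated transcripts, 65 had a leading share of at least 90% in both libraries. The 10 highest of these, selected on mean TPM, were TPI1, RPL3, RPS20, MYH9, AKR1B1, DCBLD2, COL4A2, CD63, CYBA and BSG, and all 10 were led by a coding transcript. The triose phosphate isomerase TPI1 stood at 2506 and 2431 TPM with 98.5% and 98.3% in TPI1-202. MYH9, the heavy chain of non-muscle myosin, had 98.8% of its 1308 and 1275 TPM in MYH9-201 in both libraries. COL4A2, a chain of basement membrane collagen, had 97.9% and 97.8% in COL4A2-201. AKR1B1, the aldose reductase of the polyol pathway, had 93.0% and 92.8% in AKR1B1-201.

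At the other end stood genes whose TPM was spread thinly. The 10 lowest shares among genes with a mean of at least 100 TPM were those of ADGRG1, DMKN, TTC3, HNRNPH1, DNM1, MTA1, SAP30BP, RBM39, PTK2 and TSPAN4, chosen by this share. ADGRG1, an adhesion receptor with 77 annotated transcripts, had 9.18% and 8.92% in its lead. DMKN, a secreted protein of epithelia with 68 transcripts, had 8.42% and 10.47%. HNRNPH1, a splicing regulator with 50 transcripts, had 14.4% and 12.4%. RBM39, another splicing regulator, had 15.7% and 17.7% in a retained intron, RBM39-225, and its coding transcripts together held 6.24% and 5.37%. The lead was the same in both libraries for 5 of these 10 genes.

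Most coding genes were led by a coding transcript. Of 11813 coding genes with at least 2 transcripts, 10300 (87.2%) had a coding lead, with a median share of 63.1%. A transcript annotated as a retained intron led 520 genes (4.402%, median share 36.1%), and a target of nonsense-mediated decay led 391 (3.31%, median share 40.7%). A transcript with no defined coding sequence led 299 (2.53%, median share 42.7%). Where the tables held the transcript that GENCODE marks as the representative of a coding gene (MANE Select), it led in 7068 of 11034 genes (64.1%). Within the kept coding genes, coding transcripts held 78.0% and 77.7% of the whole pool, retained introns 8.13% and 8.34%, and targets of nonsense-mediated decay 3.71% and 3.56%.

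Of the TPM of the glycolytic list 48.5% in replicate 1 and 48.8% in replicate 2 was assigned to transcripts of non-coding types, most of it in GAPDH and ENO1. GAPDH-208, annotated as a retained intron, held 62.5% and 63.2% of GAPDH, and the coding GAPDH-201 held 34.7% and 34.1%. ENO1-203, a retained intron of the enolase gene ENO1 (7341 and 7153 TPM), held 54.9% and 56.5%, against 43.1% and 41.4% for the coding ENO1-201. LDHA-202, a retained intron of the lactate dehydrogenase gene LDHA (1919 and 1932 TPM), held 55.3% and 55.8%. PKM-218, a decay target of the pyruvate kinase gene PKM (2350.5 and 2073 TPM), held 47.1% and 53.5%, and all coding transcripts of PKM together 22.0% and 24.6%. These shares were close between the libraries. Other members had coding leads, with PGAM1 at 99.5% and 99.4%, PGK1 at 82.5% and 97.5%, HK1 at 83.7% and 82.7% and ALDOA at 39.8% and 43.0%. The median share of the 18 kept genes of the list was 58.5%, and 16 had the same lead in both libraries, the exceptions being GPI and ENO2. Over all kept genes with several transcripts the median share was 59.7%, and 76.4% had the same lead.

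In GAPDH, ENO1 and LDHA the exons that set these leads apart carried little of the coverage. Thin exons are not particular to such leads: an exon under 10% of the median exon was found in 32.3% of 372 retained-intron leads and in 31.1% of 9095 coding leads. The tables also give the coverage allotted to each exon of each transcript, and the sum over transcripts at a position is called depth below. In GAPDH-208 the distinguishing exon keeps the 129-base intron at chr12:6536791-6536919 (GRCh38, plus strand), and its coverage was 5039 in replicate 1 and 4693 in replicate 2. The coding transcripts that splice this intron out had a coverage of 49867 and 44724 on the exons beside it, so the kept intron made up 9.18% and 9.50% there, against 62.5% and 63.2% of the gene's TPM. In ENO1 the first exon of ENO1-203, of 846 bases, had a coverage of 577 and 538, while the other exons of that transcript ran from 8862 to 17827 in replicate 1. In LDHA the first exon of LDHA-202, of 1285 bases, had 19.2 and 21.03, and the other exons ran from 1436 to 7054 in replicate 1. For GAPDH the local part was thus below the TPM share, and for ENO1 and LDHA the first exon of the lead was below its other exons. How the estimate divides shared exons was not tested.

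In ACTB the local part was above the TPM share when set against the matched coding transcripts only. ACTB-206 keeps a 441-base intron of the beta-actin gene (4619 and 4537 TPM) and held 60.02% and 43.1% of it. The exon with the intron had a coverage of 2344 and 1356, against 253 and 242 for the matched coding transcripts that splice it out, a local part of 90.3% and 84.8%. A transcript of ACTB with no match in GENCODE 44 held 18.5% and 20.5% of the TPM, and as its type is unknown it is not among the coding transcripts of that comparison. If it splices the intron out, the local part would be lower, so whether ACTB differs from GAPDH here was not tested. Over all 520 coding genes led by a retained intron, 235 leads hold a whole intron of a coding transcript within 1 exon. Their median TPM share was 36.4% and 36.1%, and the median local part was 27.1% and 26.5%. In 33 of the 235 the local part was under 25% of the TPM share in both libraries. APLP2-207, chosen after its values were seen, was among these, with 35.3% and 34.8% of TPM and a local part of 0.160% and 0.1004%.

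PKM shows the difference on exons with known functions. The gene encodes muscle-type pyruvate kinase, and its transcripts carry either of a pair of mutually exclusive exons, M1 in muscle and brain and M2 in proliferating cells. The exons are shown because they are equal in length and differ along it, so that fragments can be told apart. Capitals mark the exon and lower case the 15 bases joined to it on each side in the GENCODE 44 transcript sequences, 5′ to 3′. M1 lies at chr15:72203022-72203188 and M2 at chr15:72202454-72202620, both on the minus strand of GRCh38.

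PKM M1 exon: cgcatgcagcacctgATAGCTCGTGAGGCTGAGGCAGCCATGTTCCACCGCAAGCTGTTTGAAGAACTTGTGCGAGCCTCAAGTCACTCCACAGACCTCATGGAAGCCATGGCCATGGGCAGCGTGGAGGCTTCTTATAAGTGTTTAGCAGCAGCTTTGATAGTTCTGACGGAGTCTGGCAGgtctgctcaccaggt
PKM M2 exon: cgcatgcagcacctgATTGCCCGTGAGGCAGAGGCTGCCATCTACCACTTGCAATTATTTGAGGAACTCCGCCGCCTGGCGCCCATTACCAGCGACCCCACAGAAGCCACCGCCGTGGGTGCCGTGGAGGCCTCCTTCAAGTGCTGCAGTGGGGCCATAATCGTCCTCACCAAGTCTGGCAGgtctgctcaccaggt

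The M2 exon had a depth of 3173 in replicate 1 and 2773 in replicate 2, and the M1 exon 148 and 115. By depth M2 made up 95.5% and 96.0% of the pair, while by TPM of the transcripts that carry it M2 made up 71.2% and 71.1%. M1 made up 4.46% and 3.99% by depth and 28.8% and 28.9% by TPM. Both measures put M2, the form of proliferating cells, above M1. In the tropomyosin gene TPM3 the measures of a 76-base pair were closer, with the higher exon at 95.7% and 84.1% by TPM and 96.3% and 95.3% by depth. The leading transcript of PKM, PKM-218, carries M2, and its 3 exons nearest the 5′ end had coverages of 6.69, 10.9 and 29.9 in replicate 1, against 960.5 to 4171 for the others. Its 117-base second exon was in 58.6% and 58.9% of the TPM that spans it, and its depth was 0.898% and 0.893% of that of its neighbours.

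Exons of this kind could be counted over all genes with a mean of at least 100 TPM. Inclusion is defined as the part of the TPM spanning an exon that contains it, and relative depth as the depth of the exon in percent of the mean of its neighbours. For 9406 inner exons carried by nearly every transcript (1326 genes), the relative depth had a median of 104% in both libraries, with the 10th and 90th percentiles at 71.2% and 163% in replicate 1. Of 1522 cassette exons with an inclusion of at least 50% in both libraries, 31 in 30 genes had a relative depth under 10% in both. They include a 77-base exon of TXNRD1 with inclusion of 81.1% and 82.2% and relative depth of 2.35% and 2.47%. A 57-base exon of RTN4 had inclusion of 75.9% and 77.1% and relative depth of 4.68% and 4.84%. A 147-base exon of HNRNPD had inclusion of 60.3% and 59.9% and relative depth of 7.89% and 7.24%. TXNRD1, a thioredoxin reductase, and RTN4, a protein of the endoplasmic reticulum, were chosen after their values were seen. Low depth was not confined to alternative exons. Of the 9406 inner exons in nearly every transcript, 59 (0.627%) were under 10% in both libraries, among them the 221-base exon of HIF1A at chr14:61736889-61737109, with a depth of 9.88 and 10.96 beside neighbours at 830.4 and 786. The HIF1A TPM that spans that exon came wholly from transcripts that contain it, an inclusion of 100% in both libraries. Inclusion counts annotated transcripts only, so it cannot show whether the exon is skipped in these cells, and this was not tested.

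The libraries were compared by gene sums, by transcripts and by shares. Across genes, log2(TPM + 1) had a Pearson correlation of 0.988 for gene sums (15374 genes) and 0.894 for the transcripts of genes with at least 2 (119637 transcripts), and the leading shares had 0.679 (12913 genes). Genes are not independent replicates and the scales differ, so these values only describe the spread and are not ranked. The median absolute difference of gene sums was 0.14 on the log2 scale, and that of leading shares was 6.39 percentage points. The same transcript led in both libraries in 9863 genes (76.4%, Wilson 95% interval 75.6 to 77.1, counting error only), and the lead differed in 3050. In 20.3% of genes the share of the lead differed by over 20 points, and in 631 genes (4.89%) by over 50 points. A transcript listed at 0 in 1 library had at least 10 TPM in the other in 350 cases, from 334 genes. Leads were more often the same in genes with few annotated transcripts (90.9% with 2, 58.3% with 21 or more) and in abundant genes (65.6% at 1 to 3 TPM, 87.4% at 300 TPM or more).

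**Figure D4:**
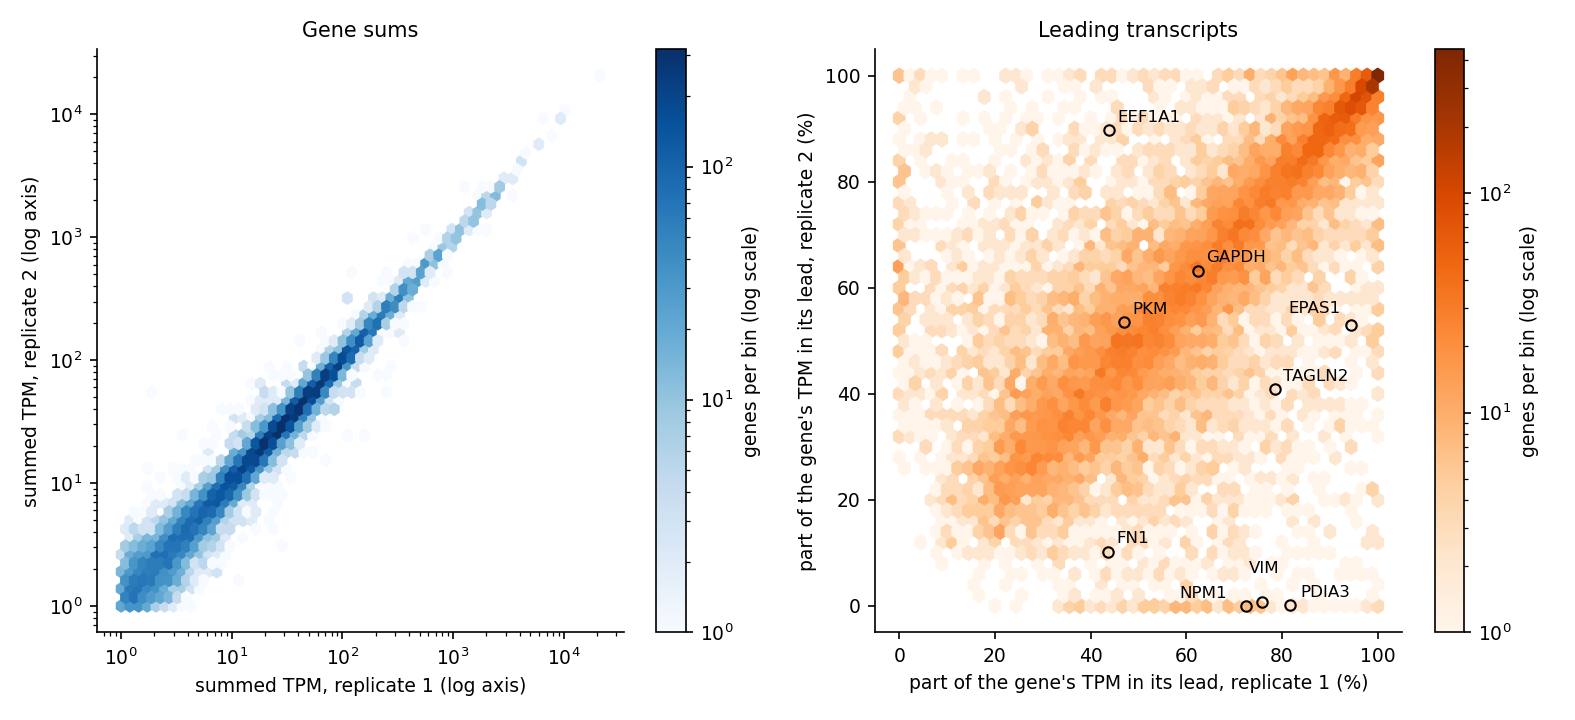
Left, summed TPM of each kept gene in replicate 1 and replicate 2, both axes log, colour for genes per bin. Right, share of the leading transcript (%) in both libraries, with circles for named genes. Gene sums lie along the diagonal, while VIM, NPM1, PDIA3 and FN1 lie near the bottom edge and EEF1A1 and EPAS1 far from the diagonal.

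Vimentin, nucleophosmin and fibronectin are abundant genes with a different lead in each library. VIM, the intermediate filament of mesenchymal and cultured cells, had 3569 and 2224 TPM. VIM-201 held 75.7% in replicate 1 and 0.658% in replicate 2, while VIM-209 was listed at 0 in replicate 1 and held 80.9% in replicate 2. Both encode the same coding sequence of 1398 bases, so the coding product of the lead was the same in both libraries. The first exon of VIM-201 had a depth of 8340 in replicate 1 and 1332 in replicate 2, while the third exon of VIM had 7625 and 7140. NPM1, a nucleolar chaperone, had 941 and 1046 TPM, with 72.5% in NPM1-204 in replicate 1 and 0 in replicate 2, where NPM1-203 led with 41.2%. FN1, the extracellular matrix protein fibronectin with 27 annotated transcripts, had 6255 and 6043 TPM, with 43.6% and 10.2% in FN1-204 and 23.6% and 27.97% in FN1-213. TAGLN2, an actin-binding protein, had 867 and 905 TPM, with 78.5% and 40.9% in TAGLN2-203 and 19.7% and 58.4% in TAGLN2-202. EEF1A1 had the same lead, EEF1A1-203, but its share was 43.9% in replicate 1 and 89.7% in replicate 2, and the gene sum was 6355 and 9443 TPM. PDIA3, a disulfide isomerase of the endoplasmic reticulum chosen after its values were seen, had 81.7% and 0.139% in the decay target PDIA3-202 and 17.1% and 97.9% in the coding PDIA3-201.

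Genes with a different lead in each library were also a little less alike in their sums. Of 1661 genes of at least 100 mean TPM and 2 or more transcripts, 251 (15.1%) had different leads. The median absolute log2 difference of gene sums was 0.16 in these and 0.08 in the others. By bases of coverage, which do not depend on the length of the transcript chosen, it was 0.10 and 0.08. The differing leads shared a median of 64.1% of their exon bases, and in the other genes the first and second transcript shared 47.4%. Both leads were coding in 157 of the 251 genes, and in 37 of these they encode the same coding sequence. The 10 highest of the 251, selected on mean TPM, were FN1, VIM, RPL10, PSAP, RPLP0, RPL36A, NPM1, HMGN2, TAGLN2 and RPL23. Sums that differed over 2-fold were rare, with 19 of 1756 genes of at least 100 TPM. They include TIMP2, an inhibitor of matrix metalloproteases, at 251 and 54.6 TPM, TXNDC5, a disulfide isomerase, at 122 and 495 TPM, and PTTG1IP at 464 and 939 TPM, all chosen after their values were seen. The clathrin light chain CLTA, at 339 and 165 TPM, was another, and its lead was the same in both libraries with 98.7% and 96.4%.

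For some exons the depth was closer between the libraries than the TPM of the transcripts that carry them. ACTN1, an actin crosslinker of stress fibres, has a pair of alternative exons in its calcium-binding region. The smooth muscle form has 66 bases at chr14:68878458-68878523 and the non-muscle form 81 bases at chr14:68878989-68879069 (minus strand, GRCh38). They are shown because the leads of ACTN1 in the libraries carry different ones, with the exon in capitals as before.

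ACTN1 66-base exon: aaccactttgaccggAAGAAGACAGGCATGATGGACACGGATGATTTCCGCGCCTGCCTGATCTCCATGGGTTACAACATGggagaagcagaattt
ACTN1 81-base exon: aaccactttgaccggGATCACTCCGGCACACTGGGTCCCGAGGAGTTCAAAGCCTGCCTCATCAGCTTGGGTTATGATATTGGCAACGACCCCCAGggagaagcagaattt

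The 66-base exon was in 66.6% of the ACTN1 TPM that spans it in replicate 1 and 20.5% in replicate 2. The inclusion of the 81-base exon was 30.6% and 77.8%. ACTN1-204, with the 66-base exon, held 49.5% and 16.3% of the gene, and ACTN1-201, with the 81-base exon, 22.9% and 67.8%. The depth of the 66-base exon was 67.6 and 58.2, and that of the 81-base exon 474 and 461. Relative to the neighbours these are 6.11% and 5.49% for the smooth muscle form and 42.9% and 43.5% for the non-muscle form. The exon order by depth was the same in both libraries, while the order by TPM was not.

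Fibronectin, from FN1, behaved in the same way at its extra domains, which are included in cellular fibronectin and skipped in the plasma form. The 270-base exon for extra domain A had an inclusion of 26.9% in replicate 1 and 49.1% in replicate 2, and its relative depth was 75.6% and 78.8%. The 273-base exon for extra domain B had an inclusion of 10.99% and 21.1%, with a relative depth of 21.4% and 22.3%. Exons of other transcripts overlap it, so this depth is not that of the extra domain B exon alone. DNM1L, the dynamin of mitochondrial fission, had a 33-base exon with an inclusion of 12.6% and 79.1% and a relative depth of 78.4% and 85.4%. Other exons differed in depth as well. A 97-base exon of MDM2, the ubiquitin ligase of p53, had an inclusion of 61.8% and 82.4% and a relative depth of 25.6% and 136%. A 54-base exon of the clathrin light chain CLTB had an inclusion of 0 and 30.3% and a relative depth of 0 and 2.72%. A 39-base exon of DNM1L had an inclusion of 37.9% and 4.19% and a relative depth of 2.80% and 0.566%, and a 78-base exon of DNM1L had 52.4% and 22.8% with a relative depth of 52.1% and 69.2%.

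**Figure D5:**
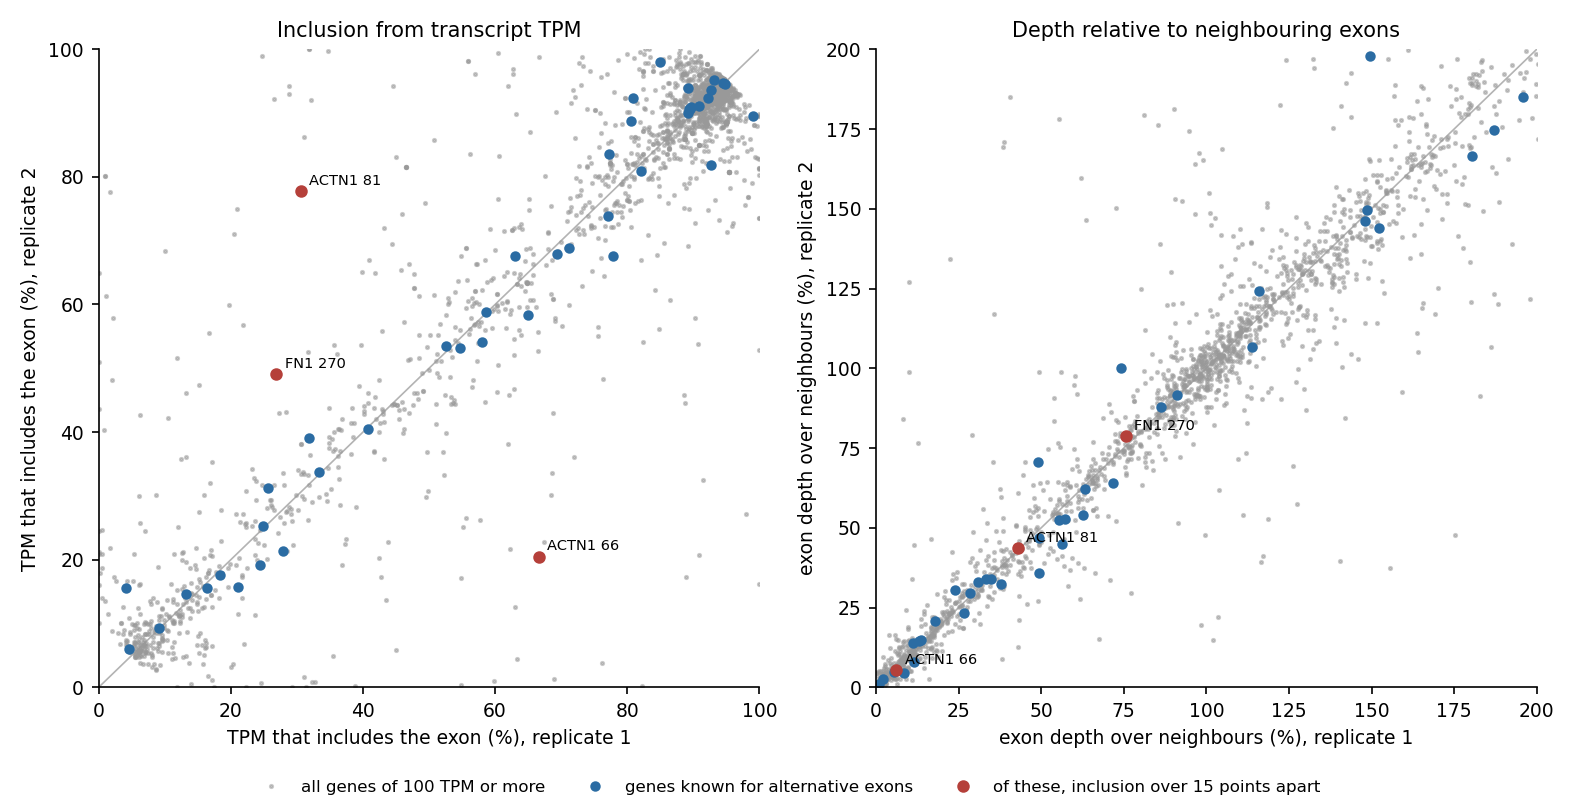
Cassette exons of genes of at least 100 TPM, replicate 1 on the horizontal and replicate 2 on the vertical axis. Left, percent of the spanning TPM that includes the exon. Right, depth in percent of the neighbouring exons, drawn up to 200%. Blue points are exons of genes known for alternative splicing, and red points those of them over 15 points apart in inclusion, from ACTN1 and FN1. Genes under 100 TPM such as MDM2 are not drawn.

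Of the genes with a mean of at least 100 TPM, 925 had 2087 alternative cassette exons, with a median difference of inclusion of 2.63 points between the libraries. The median fold between the libraries was 1.07 for their relative depth, and 88.0% (1830 of 2080 with a value in both) were within 1.5-fold. Inclusion and relative depth are on different scales, so these values do not show which is steadier. Among the 137 exons selected on an inclusion difference of over 20 points, the median fold of relative depth was 1.12, and 79.9% (107 of 134) were within 1.5-fold. Among the 1450 exons with inclusion within 5 points these were 1.07 and 90.2%. For exons in nearly every transcript the fold was 1.04, with 96.2% within 1.5-fold.

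Some other exons with known roles had similar inclusion in both libraries, while further exons of genes known for alternative splicing did not. A 90-base exon of LMNA had an inclusion of 45.8% and 76.1%, with a relative depth of 128% and 113%. A 694-base exon of BCL2L1 had an inclusion of 69.0% and 21.8%, with a relative depth of 46.9% and 41.4%. Transcripts with other exons that overlap these held 20.8% of the TPM of LMNA and 61.1% of that of BCL2L1. A lower inclusion here is therefore not the same as skipping, and the depth is not that of the named exon alone. PTBP1, a repressor of exon inclusion, has a 34-base exon at chr19:807869-807902 (plus strand) whose skipping shifts the reading frame and sends the transcript to decay. It is shown because a decay target was the second transcript of the gene.

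PTBP1 34-base exon: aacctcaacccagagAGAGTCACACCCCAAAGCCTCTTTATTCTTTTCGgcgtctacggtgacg

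This exon was in 52.6% and 53.5% of the TPM that spans it, and its relative depth was 148% and 146%. The sum of PTBP1 was 446 and 446 TPM. PTBP1-202 led with 42.1% and 43.2%, and the decay target PTBP1-207 held 35.7% and 35.3%. TPM1, a tropomyosin that lies along actin filaments, has a pair of alternative 76-base exons in its middle. They lie at chr15:63061198-63061273 and chr15:63061713-63061788 (plus strand) and are shown for comparison of the pair.

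TPM1 first 76-base exon: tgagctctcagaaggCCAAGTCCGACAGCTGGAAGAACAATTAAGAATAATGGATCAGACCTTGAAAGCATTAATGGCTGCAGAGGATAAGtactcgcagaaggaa
TPM1 second 76-base exon: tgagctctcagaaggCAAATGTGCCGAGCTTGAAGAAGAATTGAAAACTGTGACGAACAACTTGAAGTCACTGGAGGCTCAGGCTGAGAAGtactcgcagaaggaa

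The first was in 31.9% of the TPM that spans it in replicate 1 and 39.1% in replicate 2, and the second in 64.9% and 58.4%. Their depths were closer to each other, at 33.3% and 34.1% of the neighbours for the first and 28.5% and 29.4% for the second. RPS24, a ribosomal protein with a 22-base exon near its 3′ end, included it in 82.0% and 80.9%. MYL6, a myosin light chain, included its 45-base exon, which alters the C terminus, in 31.6% and 31.4%. HNRNPA2B1 included the 36-base exon that makes the B1 form in 9.10% and 9.22%. VEGFA, the main angiogenic growth factor, had a 72-base exon in 58.1% and 54.1% and a 132-base exon in 13.2% and 14.7%, both of which encode parts that bind heparin. By relative depth the order was the other way round, with 37.7% and 32.3% for the 72-base exon and 49.2% and 46.7% for the 132-base exon. Over the 29 genes of the list with an alternative inner exon, 133 exons had a median inclusion difference of 4.49 points. The 31 kept genes of the list held 2.10% and 2.09% of the pool, with a median share of 50.1%. Beside 76.4% of all kept genes with several transcripts, 22 of these 31 had the same lead in both libraries. Of those that did not, BCL2L1, an inhibitor of apoptosis, had 54.5% and 18.7% in BCL2L1-201 and 18.1% and 50.3% in BCL2L1-203, which encode the same coding sequence.

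The genes of the HIF pathway made up a small part of the pool, 0.0610% and 0.0676%. All 8 that were kept of 10 had the same lead in both libraries, beside 76.4% of all kept genes with several transcripts. HIF1A, the subunit with the widest expression, stood at 304 and 316 TPM. HIF1A-202 held 37.5% and 55.4% of it and HIF1A-201 36.8% and 15.2%. EPAS1, which encodes HIF-2 alpha, stood at 75.4 and 117.5 TPM, and EPAS1-201 held 94.4% in replicate 1 and 53.0% in replicate 2, where the retained intron EPAS1-204 held 33.0%. The level of EPAS1-201 itself was 71.2 and 62.3 TPM, so the higher sum in replicate 2 lay in its short non-coding transcripts. Among the prolyl hydroxylases EGLN1 (100.5 and 107 TPM) came almost wholly from EGLN1-201, at 100% and 99.9%. EGLN2 (31.9 and 41.6 TPM) was divided, with 40.1% and 51.1% in its lead, and EGLN3 (16.0 and 13.8 TPM) had 69.8% and 68.2%. VHL, which recognises the hydroxylated subunits, had 59.3% and 66.5% in VHL-201, and HIF1AN, the asparaginyl hydroxylase, 85.2% and 89.5%. ARNT, the common partner, had 54.3% and 62.5%. HIF3A (0 and 0.0546 TPM) and ARNT2 (1.39 and 0.968 TPM) were not kept.

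Known targets of HIF were all kept, 25 of 25, with 0.637% and 0.642% of the pool. Of all annotated genes, pseudogenes and non-coding genes included, 26.4% were kept. The splicing factors (21 of 21) and the translation factors (11 of 11) were kept in full as well. The median share of the HIF targets was 72.5%, and 24 of 25 had the same lead in both libraries. Over all kept genes with several transcripts these were 59.7% and 76.4%. For such genes at 100 to 300 TPM they were 66.4% and 84.0%, and at 300 TPM or more 71.4% and 87.4%. Whether the targets differ from other genes was not tested. DDIT4, a brake on mTOR signalling, was the highest at 1069 and 1042 TPM with 97.2% and 98.0% in its lead. PLIN2, which coats lipid droplets, had 552 and 565.05 TPM with 96.0% and 95.3%. The glucose transporter SLC2A1 had 540.4 and 509 TPM with 93.8% and 91.8%. CA9, a carbonic anhydrase of the cell surface, had 69.7 and 55.9 TPM with 97.6% and 99.6%. Several targets were not led by a coding transcript or were divided. ANGPTL4, an inhibitor of lipoprotein lipase, had 398 and 365 TPM, with 59.5% and 58.5% in the decay target ANGPTL4-206 and 16.1% and 16.6% in the coding ANGPTL4-202. NDRG1 had 581 and 580.5 TPM, with 39.6% and 50.1% in a retained intron. VEGFA (241 and 240.5 TPM) had 51.7% and 49.9% in the coding VEGFA-220 and 24.2% and 26.5% in the retained intron VEGFA-215. ADM, the vasodilator adrenomedullin, was the only member with a different lead in each library, with ADM-201 at 22.0% and 56.2% and ADM-203 at 34.4% and 33.4%.

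The cytoskeletal list had a median share of 63.4%. Of its 29 kept genes with several transcripts 24 had the same lead, beside 76.4% of all such genes. TUBB, a beta-tubulin, had 95.2% and 96.5% in a single transcript, and TUBA1B, an alpha-tubulin, 68.6% and 95.7%. FLNA, the actin crosslinker filamin A, had 2053 and 1949.5 TPM, with 46.1% and 46.1% in the decay target FLNA-205 and 36.5% and 35.9% in the retained intron FLNA-215. TPM4, another tropomyosin, was led by a decay target, TPM4-201, with 96.5% and 67.9%. Non-coding types held 18.4% and 17.0% of the list's TPM.

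The splicing factors, chosen for known transcripts with premature stops, had the lowest median share of the lists examined, 43.8%. They held 0.531% and 0.561% of the pool, 13 of 21 had a share under 50%, none reached 90%, and 20 of 21 had the same lead. Over all kept genes with several transcripts these parts were 37.0%, 15.9% and 76.4%. HNRNPA1 was the highest at 804 and 844 TPM with 48.6% and 48.5% in its lead. SRSF7 and CLK1 were led by decay targets, SRSF7-208 with 45.5% and 47.4% and CLK1-204 with 31.4% and 38.8%. In SRSF3 the coding lead held 64.3% and 63.0% beside a decay target, SRSF3-203, at 23.6% and 24.0%. SRSF6 has only 2 annotated transcripts, the coding one with 84.0% and 79.7% and the decay target with 16.0% and 20.3%. Non-coding types held 25.5% and 26.7% of the TPM of these regulators.

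Ribosomal protein genes were at the other end, with a median share of 78.6%, 24 of 84 at 90% or more and 77 of 84 with the same lead. Over all kept genes with several transcripts 15.9% were at 90% or more and 76.4% had the same lead. Among such genes at 300 TPM or more these parts were 26.0% and 87.4%. RPL12 (98.4% and 98.5%) and RPL35 (97.7% and 97.7%) came almost wholly from a single transcript. RPS18 had 90.6% and 71.2% in its lead, with the retained intron RPS18-232 at 5.74% and 25.7%, and RPS12 was divided between its lead at 57.0% and 59.5% and the retained intron RPS12-202 at 43.0% and 40.5%. Of the 11 translation factors all had the same lead, beside 76.4% of all kept genes with several transcripts. The median share of these factors was 51.3%. EEF2, the elongation factor for translocation, had 99.3% and 98.97% in EEF2-201, and EIF4A2, an RNA helicase of initiation, had 51.3% and 42.9% in the decay target EIF4A2-202.

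Non-coding RNAs were modest members of the pool. Of 18 genes listed 17 were found and 15 were kept, with 0.189% and 0.197% of the pool. All 12 kept members with several transcripts had the same lead, beside 76.4% of all such genes. SNHG29, listed as LRRC75A-AS1, was the highest at 718 and 715 TPM with 51.0% and 53.6% in its lead. GAS5, a host gene of small nucleolar RNAs with 29 transcripts, had 483 and 455 TPM with 35.8% and 28.9%. MALAT1, a nuclear RNA of speckles, had 45.2 and 62.2 TPM, and MIR210HG, host of the hypoxia microRNA miR-210, had 17.4 and 20.1 TPM. RN7SL2, of the signal recognition particle, had 49.0 and 89.5 TPM, and RMRP (0.567 and 4.203 TPM) and RPPH1 (0.449 and 3.34 TPM) were not kept. Replication-dependent histones, whose messages lack a poly(A) tail, had 18 of 73 genes kept, with 0.0143% and 0.0161% of the pool. The part kept of all annotated genes was 26.4%, pseudogenes and non-coding genes included, so it is not a like set. HIST1H2BK was the highest histone at 44.9 and 56.9 TPM.

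Genes of the mitochondrial chromosome had no level. All 37 were listed at 0 in both libraries, while nuclear copies of them had high values. Of 386 nuclear pseudogenes of mitochondrial genes 7 were kept, all on chromosome 1, and MTATP6P1 stood at 1936 and 1873 TPM, MTCO1P12 at 1286 and 1300.4 TPM and MTND2P28 at 699.6 and 708 TPM. The pseudogenes summed to 4268 and 4281 TPM, or 0.427% and 0.428% of the pool. The copies are close in sequence to the mitochondrial genes, and from which of them the fragments came was not tested. Fragments at ribosomal RNA genes also appeared in the tables. The gene models FP236383.3 (1330 and 2734 TPM), FP236383.2 (590.2 and 1175 TPM), FP671120.3 (256 and 504 TPM) and FP671120.4 (105 and 213 TPM) lie on the minus strand of chromosome 21 within the 18S ribosomal RNA genes or pseudogenes of RefSeq. These 4 were higher in replicate 2, with log2 ratios of 1.04, 0.99, 0.98 and 1.02. The gene of 5.8S ribosomal RNA RNA5-8SN4, on the plus strand, was not (45.6 and 40.1 TPM), and the strand on which fragments were counted is not stated. These loci were chosen after their values were seen, and the part of ribosomal RNA in other differences between the libraries was not tested.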

How the data were processed

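The deposited tables give TPM, FPKM and coverage per transcript, made by the authors with HISAT2 and StringTie 1.3.3 on GENCODE 27. No read counts were used here, so no count model was fitted and no test was made. The methods name hg19, but the coordinates are those of GRCh38. Transcript types, coding sequences and exon sequences come from GENCODE 44. TPM was summed by gene, and genes with at least 1 TPM in both libraries were kept. Members and lists were chosen with earlier results of these data known. Genes are named by fixed rules: the 20 highest genes and transcripts, the 10 lowest, 10 different and 10 highest dominated leads, the lists, and the threshold genes. PDIA3, APLP2, TXNRD1, RTN4, TIMP2, TXNDC5, PTTG1IP, the nuclear copies of mitochondrial genes and the FP gene models were chosen after their values were seen. Depth is the coverage the tables allot to exons; the reads were not used here. Python 3.11.15, numpy 2.4.6, pandas 2.3.3, scipy 1.17.1 and matplotlib 3.10.9 were used. Values of a few list members and 1 exon pair are not reported here.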

Additional observations from a re-analysis of the deposited data

How the results depend on the processing

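Of 39 alternatives for 7 results, 16 were within tolerance and 23 outside it, and 5 of the alternatives were chosen after seeing the data. Tolerance was 1.5-fold for the number of kept genes and the Wilson 95% interval for the same lead. For the other shares it was the standard deviation between the 2 libraries, only 0.0435 points for the median share. The log2 difference had no tolerance, and its alternatives were counted as outside. The split is therefore no test of robustness. The number of kept genes (15374) was within 1.5-fold throughout, with 17087 at a minimum of 0.5 TPM, 11803 at 5 TPM, 13105 by FPKM, 16246 by the mean and 16239 to 16313 without a replicate. The top 100 genes held 26.7% of the pool and 19.7% by bases of coverage, and 26.4% to 26.9% without a replicate. The median share of the leading transcript (59.7%) was 71.0% by bases of coverage, 67.6% over all kept genes, 59.8% in protein-coding genes, 64.1% with identical coding sequences added together and 62.7% to 62.9% without a replicate. Genes at 90% or more (15.9%) became 27.2% by bases, 29.4% over all kept genes, 19.5% with coding sequences added and 17.8% to 18.3% without a replicate. Genes under 50% (37.0%) became 24.5% by bases, 37.4% at 10 TPM, 31.1% over all kept genes, 32.1% with coding sequences added and 32.1% to 32.4% without a replicate. The same lead (76.4%) became 80.9% by bases, 79.7% at 10 TPM and 79.9% with coding sequences added. The median log2 difference (0.14) was 0.16 with a pseudocount of 0.1 and 0 without the filter. The leading share thus depends on the unit. The set of all kept genes adds 2461 genes whose only transcript has 100% by construction, while at 10 TPM the median was 59.7%. Each library's own lead has the highest share by construction, so leaving out a replicate raises it. For the other changes the cause was not tested. With 2 libraries and no untreated one, neither the spread between cultures nor an effect of FG-4592 can be given.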
